A study of Mus musculus with 16 samples.

Results

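The 9 genes described here encode the machinery by which cells present peptides on major histocompatibility complex (MHC) class II: the class II chains H2-Aa, H2-Ab1 and H2-Eb1, the invariant chain Cd74, the peptide editor H2-DM (H2-DMa and H2-DMb1), its inhibitor H2-DO (H2-Oa and H2-Ob) and the transactivator Ciita. They were chosen by name, with earlier results of these data known. All 9 were measured among the 23072 genes and unnamed transcripts tested. They were read by 14 array probes, 4 for H2-Ab1, 2 each for H2-Aa and H2-Oa and 1 for each other gene. All 14 passed the filter on dim signals, and none was saturated in any sample. The Ciita probe passed that filter only through the adult bone marrow groups. Transcripts of early B-lineage cells from wild-type BALB/c mice were measured on two-colour Agilent arrays, in 4 groups of 4 arrays: adult bone marrow (BM) Fr.B/C, adult bone marrow Fr.A, fetal liver (FL) Fr.B/C and fetal liver Fr.A. In the Hardy scheme Fr.A is the pre-pro-B fraction and Fr.B/C the pro-B fraction after it. A bone marrow sort combined the femurs and tibias of 16 adult females, a fetal liver sort combined the livers of a litter at gestation day 16 (8 embryos on average, sex not given), and a sort gave 1 sample of each fraction. No group carried a transgene, a deletion or a treatment. The samples are pools, so differences between animals are not seen, and whether samples of a group were independent pools rests on the labels, which give 4 sorts per tissue. Each sample, amplified from 100 ng of total RNA, was hybridised against the same reference, RNA pooled from 6 cell lines named P388d, DN3, EL4, J558, RS2 and R1. The values are log2 ratios of sample over reference, and they compare groups for a given probe but not one gene's level with another's.

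MHC class II chains pair in the endoplasmic reticulum with the invariant chain, which blocks the groove and carries the complex to endosomes. There proteases cut the invariant chain, H2-DM exchanges its remnant for peptide, and H2-DO restrains H2-DM, mainly in B cells. CIITA does not bind DNA itself but is recruited to class II promoters by the RFX complex at the X box, CREB-type factors at the adjacent X2 box and NF-Y at the Y box, and its own level largely sets class II transcription. In the mouse, class II proteins are known to appear on B-lineage cells earlier in development in the adult than in the fetus.

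The promoter sequences are shown because the members that share these boxes moved by unequal amounts between the groups below. RefSeq promoters (GRCm38.p6, 250 bases before and 50 after the start of transcription) were given for 6 of the 9 genes. In 5 of them, GNAAC (the core letters of the X box) was followed on the gene's own strand by ATTGG (the letters of the Y box) at 25 to 45 bases, counted from start to start. Both strands were searched, and the letters and spacing were chosen with these sequences in view. The stretches below are the 130 bases before the start, 5′ to 3′ on the gene's strand, with the matched letters in capitals. They lie at chr17:34287824-34287953 (minus strand) for H2-Aa, chr17:34305737-34305866 (plus) for H2-Eb1, chr17:34153061-34153190 (plus) for H2-DMb1, chr17:34092249-34092378 (plus) for H2-Oa and chr17:34238775-34238904 (plus) for H2-Ob.
H2-Aa: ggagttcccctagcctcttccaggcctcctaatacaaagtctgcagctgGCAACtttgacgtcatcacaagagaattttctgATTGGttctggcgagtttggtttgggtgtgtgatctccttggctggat
H2-Eb1: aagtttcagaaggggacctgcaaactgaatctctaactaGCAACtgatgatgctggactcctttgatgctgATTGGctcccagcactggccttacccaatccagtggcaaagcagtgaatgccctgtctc
H2-DMb1: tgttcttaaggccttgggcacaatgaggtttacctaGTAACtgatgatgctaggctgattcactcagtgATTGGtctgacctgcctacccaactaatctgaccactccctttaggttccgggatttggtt
H2-Oa: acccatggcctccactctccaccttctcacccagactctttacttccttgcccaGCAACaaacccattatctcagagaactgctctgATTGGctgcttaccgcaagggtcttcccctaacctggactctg
H2-Ob: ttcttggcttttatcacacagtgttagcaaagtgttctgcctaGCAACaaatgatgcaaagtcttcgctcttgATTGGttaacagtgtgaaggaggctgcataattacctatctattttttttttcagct

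The Y-box letters began 33 bases after the X-box letters in H2-Aa, H2-DMb1 and H2-Oa, 32 bases after them in H2-Eb1 and 30 bases after them in H2-Ob. In H2-Aa the X core is followed closely by tgacgtca, the palindrome that CREB-type factors are known to bind. Among 32851 RefSeq promoters of the same length, 84.8% held GNAAC and 37.4% held ATTGG on either strand. The ordered pair at this spacing was present in 3.41% of them. Neither of the 2 listed promoters of H2-DMa held the ordered pair, which says only that these letters are not in those windows.

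**Figure D1:**
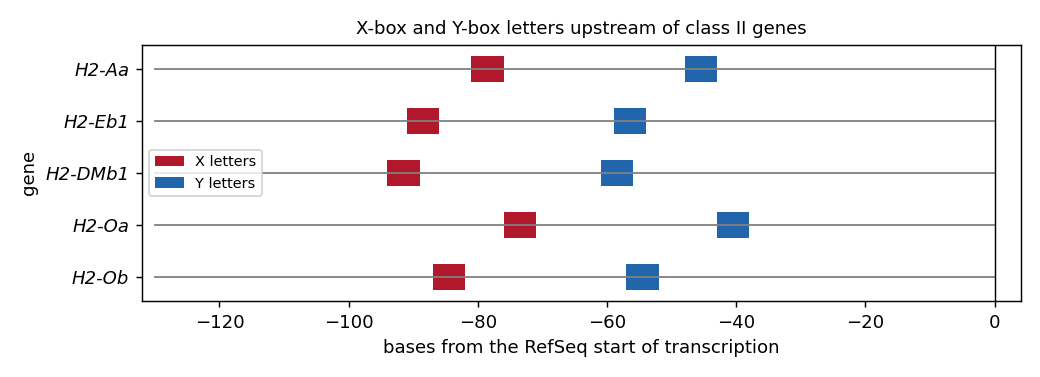
Position of the X-box letters (GNAAC) and the Y-box letters (ATTGG) in the 5 promoters, in bases from the RefSeq start of transcription; bars are 5 bases wide. In every gene shown the X letters come first and the Y letters follow 30 to 33 bases downstream.

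Median signals in the sample channel lay between 71.2 and 162 intensity units, and 52.9% to 68.3% of probes were well above background. Within a group, arrays 1 and 2 and arrays 3 and 4 correlated at r = 0.966 to 0.981 over all tested genes, except arrays 1 and 2 of fetal liver Fr.A (r = 0.926), while the other pairings reached 0.908 to 0.943. These like arrays carry opposite dyes, and whether they share RNA is not stated, so each result was also computed with them averaged to 2 values a group. The scan days in the file headers form 6 sessions, and none of them held arrays of both tissues, so tissue and scan session cannot be told apart. The B-lineage labels were set against 13 measured B progenitor markers: Flt3, a receptor of earlier progenitors, was lower in Fr.B/C than in Fr.A by −2.96 ± 0.21 log2 units (SE) in adult bone marrow and −3.23 ± 0.21 in fetal liver (limma adjusted p = 3.67e-08 and 1.99e-08). The Pax5 probe was well above background on 3 arrays only and was not tested.

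**Figure D2:**
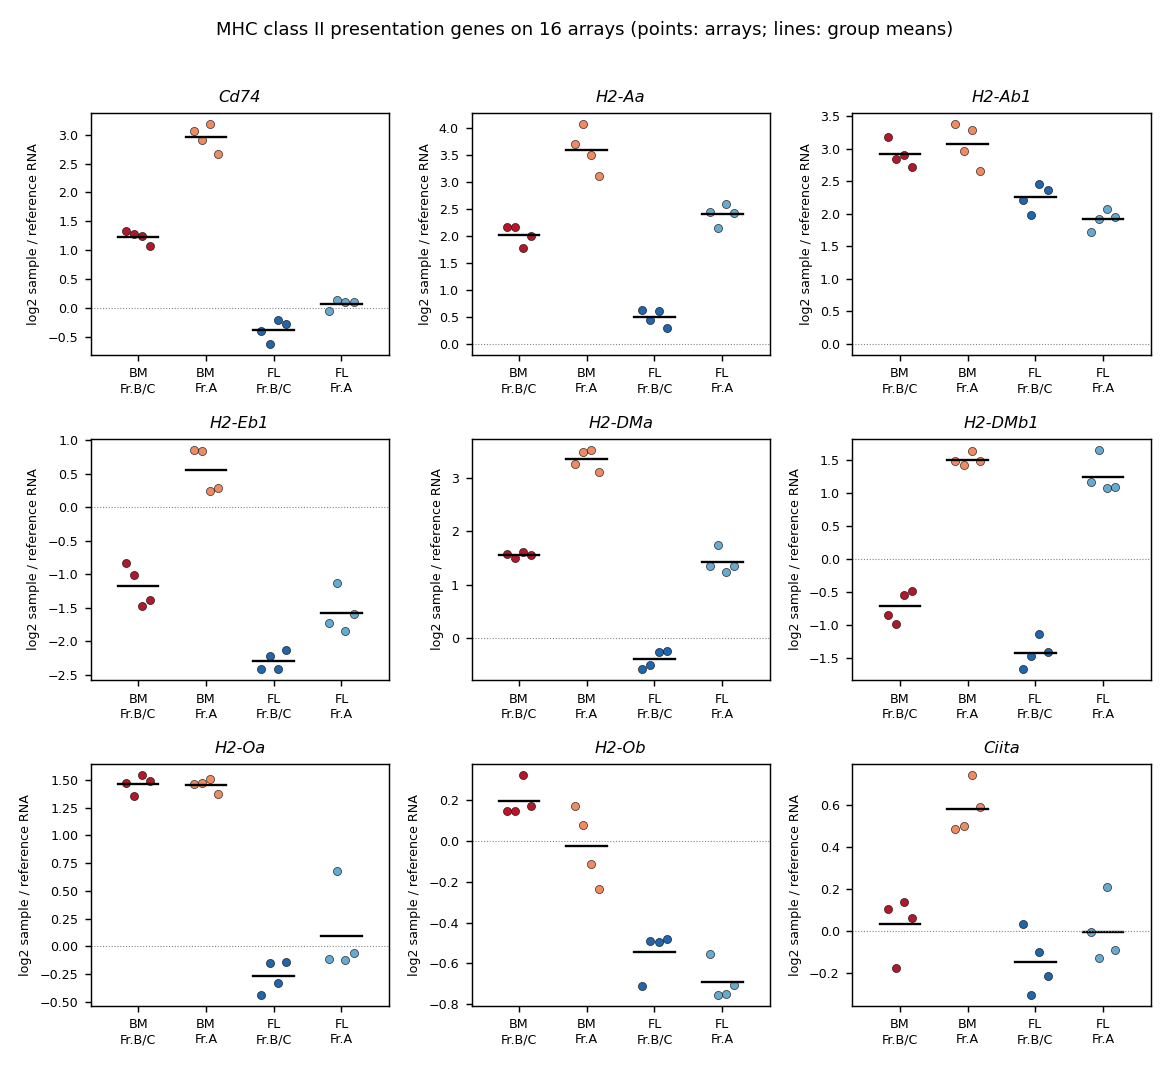
log2 ratio of sample over reference RNA on each array for the 9 genes, by group; points are arrays and lines are group means (n = 4). Bone marrow arrays lie above fetal liver arrays of the same fraction in both fractions for 7 genes; H2-DMb1 overlaps in Fr.A and Ciita in Fr.B/C.

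Adult and fetal cells of the same fraction were compared first. Bone marrow came from adult females and fetal liver from embryos of unstated sex. Tissue, age and any difference in sex therefore cannot be told apart, and a tissue difference below means all of them together. Class II presentation genes were higher in adult bone marrow than in fetal liver in both fractions. In Fr.A, 8 of 9 passed as higher and none as lower, where 17.2% of all tested genes passed as higher and 12.1% as lower. Ciita, among these 8, was tested only because its probe passed the filter on dim signals in the bone marrow groups. In Fr.B/C, 8 of 9 again passed as higher and none as lower, where 14.7% of all genes passed as higher and 13.8% as lower. The members' median difference was 1.20 log2 units in Fr.A cells and 1.12 in Fr.B/C cells, beside 0.02 and −0.01 over all genes. A gene passed at a Benjamini-Hochberg adjusted p under 0.05 in limma over all tested genes. In bulk samples fewer cells of a type and less RNA per cell cannot be told apart. With the like arrays averaged, or with scan session as a random block, 8 of 9 members again passed as higher in each fraction. The session block cannot separate tissue from session, because no session held arrays of both tissues.

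Cd74, the invariant chain, had the widest gap between tissues of the members in Fr.A. In Fr.A its log2 ratio was 3.06, 2.91, 3.19 and 2.67 in adult bone marrow, against −0.05, 0.13, 0.10 and 0.10 in fetal liver. In Fr.B/C it was 1.33, 1.28, 1.24 and 1.07 in adult bone marrow, against −0.40, −0.62, −0.21 and −0.29 in fetal liver. The groups were far apart in both fractions, and the lowest bone marrow Fr.B/C array was above the highest fetal liver Fr.A array. The difference was 2.89 ± 0.11 log2 units (SE) in Fr.A, 7.39-fold, with an adjusted p of 3.58e-11 in limma. It was 1.61 ± 0.11 in Fr.B/C, 3.06-fold, with an adjusted p of 1.82e-08. By the size of its difference in Fr.A, Cd74 ranked number 53 of 23072 tested genes.

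Of the class II chains, H2-Eb1 (the beta chain of the E molecule) had in Fr.A log2 ratios of 0.86, 0.84, 0.23 and 0.29 in adult bone marrow, against −1.73, −1.14, −1.84 and −1.60 in fetal liver. In Fr.B/C it had −0.83, −1.01, −1.47 and −1.38 in adult bone marrow, against −2.41, −2.22, −2.41 and −2.13 in fetal liver. Every adult array was above every fetal array of its fraction, but bone marrow Fr.B/C overlapped fetal liver Fr.A. The differences were 2.13 ± 0.18 in Fr.A cells and 1.12 ± 0.18 in Fr.B/C cells (limma adjusted p = 3.45e-07 and 0.000238). H2-Ea, the alpha chain of the same molecule and no member of the list, was higher in adult bone marrow too, by 1.22 ± 0.13 in Fr.A cells and 0.52 ± 0.13 in Fr.B/C cells. Its probe was dim, well above background on 9 of 16 arrays.

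H2-Aa and H2-Ab1 encode the alpha and beta chains of the A molecule. H2-Aa had in Fr.A log2 ratios of 3.71, 4.08, 3.50 and 3.11 in adult bone marrow, against 2.45, 2.14, 2.60 and 2.42 in fetal liver. In Fr.B/C it had 2.16, 2.17, 1.77 and 1.99 in adult bone marrow, against 0.63, 0.44, 0.61 and 0.28 in fetal liver. Fetal liver Fr.A lay close to bone marrow Fr.B/C, and its lowest array was within the range of those arrays. The tissue difference was 1.20 ± 0.17 in Fr.A (limma adjusted p = 6.00e-05) and 1.53 ± 0.17 in Fr.B/C (5.70e-06). With the scanner's processed signals the Fr.A difference was 0.67 and did not pass (adjusted p = 0.135). The other H2-Aa probe was higher in adult bone marrow by 0.76 in Fr.A cells and 0.42 in Fr.B/C cells, the fetal liver Fr.B/C group being well above background on 1 of its 4 arrays there.

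H2-Ab1 had in Fr.A log2 ratios of 3.38, 2.97, 3.29 and 2.66 in adult bone marrow, against 1.72, 1.92, 2.07 and 1.95 in fetal liver. In Fr.B/C it had 3.19, 2.85, 2.91 and 2.72 in adult bone marrow, against 2.21, 1.98, 2.47 and 2.36 in fetal liver. Its groups therefore fell by tissue, with both fractions of a tissue overlapping. The difference was 1.16 ± 0.13 in Fr.A (limma adjusted p = 8.40e-06) and 0.66 ± 0.13 in Fr.B/C (0.00156). All 4 H2-Ab1 probes were higher in adult bone marrow, by 0.83 to 1.25 in Fr.A and 0.66 to 0.87 in Fr.B/C.

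H2-DMa and H2-DMb1 form the H2-DM heterodimer, yet they differed unequally between tissues in Fr.A. H2-DMa had 3.27, 3.49, 3.53 and 3.12 in adult bone marrow Fr.A, against 1.35, 1.75, 1.23 and 1.35 in fetal liver Fr.A. H2-DMb1 had 1.48, 1.41, 1.62 and 1.47 in adult bone marrow Fr.A, against 1.16, 1.65, 1.07 and 1.09 in fetal liver Fr.A. H2-DMa was apart in every array, while array 2 of fetal liver was above every bone marrow array for H2-DMb1. The Fr.A difference was 1.93 ± 0.12 for H2-DMa (limma adjusted p = 1.47e-08). For H2-DMb1 it was 0.25 ± 0.15 (95% interval −0.06 to 0.57, adjusted p = 0.228). Without array 2 of fetal liver Fr.A the H2-DMb1 difference was 0.40 and passed (adjusted p = 0.0363).

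In Fr.B/C both H2-DM genes were higher in adult bone marrow. H2-DMa had 1.57, 1.50, 1.61 and 1.56 in adult bone marrow, against −0.59, −0.51, −0.27 and −0.25 in fetal liver, where 3 of the 4 arrays were well above background. H2-DMb1 had −0.85, −0.98, −0.54 and −0.49 in adult bone marrow, against −1.66, −1.47, −1.13 and −1.41 in fetal liver. Neither gene's groups overlapped. The differences were 1.96 ± 0.12 for H2-DMa (limma adjusted p = 1.04e-08) and 0.70 ± 0.15 for H2-DMb1 (0.00215). In the authors' deposited table the same differences were 3.03 and 1.24, over 1.5 times as large. H2-DMb2, a near-identical neighbour of H2-DMb1 whose probe also lists a H2-DMb1 transcript, was higher in adult bone marrow by 0.44 ± 0.09 in Fr.A cells and 0.35 ± 0.09 in Fr.B/C cells.

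H2-Oa and H2-Ob encode H2-DO. H2-Oa had 1.47, 1.47, 1.51 and 1.37 in adult bone marrow Fr.A, against −0.12, 0.68, −0.12 and −0.06 in fetal liver Fr.A, array 2 standing apart. In Fr.B/C it had 1.48, 1.36, 1.54 and 1.49 in adult bone marrow, against −0.44, −0.15, −0.33 and −0.14 in fetal liver. The adult arrays of both fractions lay between 1.36 and 1.54, above all fetal arrays. The differences were 1.36 ± 0.14 in Fr.A cells and 1.73 ± 0.14 in Fr.B/C cells (limma adjusted p = 2.72e-06 and 1.96e-07), and the other H2-Oa probe gave 1.09 and 1.65.

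H2-Ob had 0.17, 0.08, −0.11 and −0.24 in adult bone marrow Fr.A, against −0.56, −0.76, −0.75 and −0.71 in fetal liver Fr.A. In Fr.B/C it had 0.15, 0.15, 0.32 and 0.17 in adult bone marrow, against −0.71, −0.49, −0.49 and −0.48 in fetal liver. Adult arrays were above fetal arrays throughout, and the fractions of a tissue overlapped. The differences were 0.67 ± 0.10 in Fr.A cells and 0.74 ± 0.10 in Fr.B/C cells (limma adjusted p = 8.39e-05 and 3.51e-05). In the authors' deposited table they were 1.50 and 1.53.

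The probe for Ciita, the transactivator, was dim. It had 0.48, 0.50, 0.74 and 0.59 in adult bone marrow Fr.A, against −0.0015, −0.13, 0.21 and −0.09 in fetal liver Fr.A. In Fr.B/C it had 0.11, −0.17, 0.14 and 0.06 in adult bone marrow, against 0.04, −0.30, −0.10 and −0.21 in fetal liver. The probe was well above background on 3 of 4 bone marrow Fr.B/C arrays, all 4 bone marrow Fr.A arrays, no fetal liver Fr.B/C array and 2 of 4 fetal liver Fr.A arrays. In Fr.A the adult arrays were all above the fetal ones, with a difference of 0.58 ± 0.08 (limma adjusted p = 9.47e-05). In Fr.B/C the groups overlapped, and the difference was 0.18 ± 0.08 (95% interval −0.003 to 0.36, limma adjusted p = 0.136). The mean signals set against the background gave 1.08-fold. That value takes no account of the spread between arrays, so it does not show a difference. In the authors' deposited table the Ciita difference in Fr.A was 1.57. The Fr.B/C difference passed in that table (0.76, limma adjusted p = 0.00824) and with the scanner's processed signals (1.11, adjusted p = 0.00596).

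**Figure D3:**
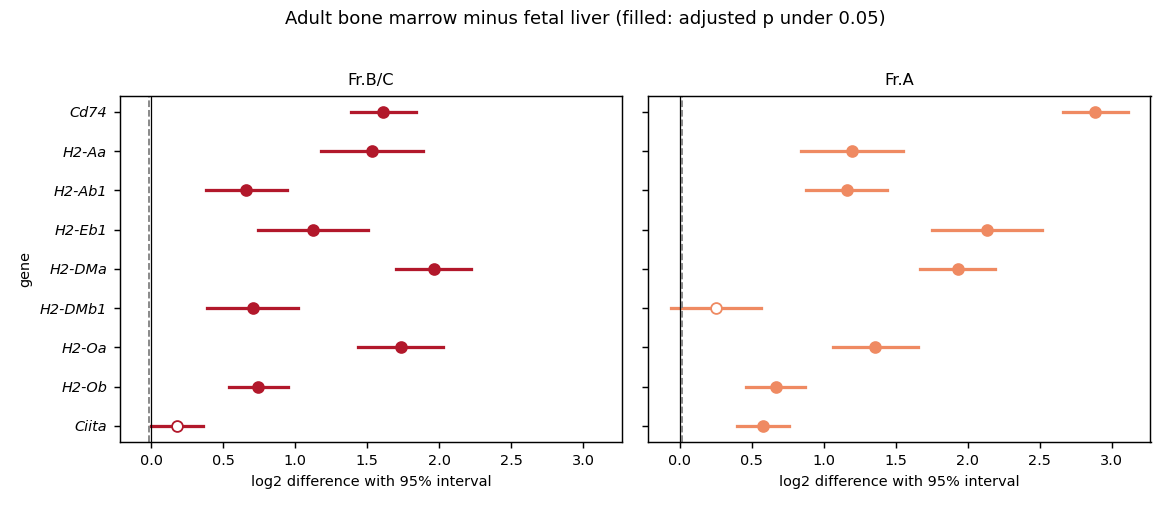
log2 difference of adult bone marrow minus fetal liver in Fr.B/C and in Fr.A, with its 95% interval; filled points passed at an adjusted p under 0.05, and the dashed line is the median of all tested genes. All members but H2-DMb1 in Fr.A and Ciita in Fr.B/C are filled, and Cd74 in Fr.A lies farthest to the right.

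The groups did not overlap, with adult bone marrow higher, for 8 of 9 members in each fraction, where 15.4% of all genes did so in Fr.A cells and 15.2% in Fr.B/C cells. The members in Fr.A include Ciita, which passed the filter on dim signals only through the bone marrow groups.

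The next comparison followed the step between the fractions, Fr.B/C against Fr.A, within each tissue. In adult bone marrow 6 of 9 members fell and none rose, where 18.7% of all genes passed as lower and 13.4% as higher. They were H2-DMb1, H2-DMa, H2-Eb1, Cd74, H2-Aa and Ciita. In fetal liver 5 of 9 fell and none rose, where 12.7% of all genes passed as lower and 9.97% as higher, and these were H2-DMb1, H2-Aa, H2-DMa, H2-Eb1 and Cd74. The members' median step was −1.57 log2 units in adult bone marrow and −0.45 in fetal liver, beside −0.04 and 0.00 over all genes. Arrays of Fr.B/C lay below all arrays of Fr.A for 6 members in adult bone marrow, where 17.1% of all genes did so. In fetal liver this held for 6 members, where 13.4% of all genes did so.

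Both H2-DM genes were much lower in Fr.B/C. H2-DMb1 averaged −0.71 ± 0.24 in bone marrow Fr.B/C and 1.50 ± 0.09 in bone marrow Fr.A (SD, n = 4 each), a step of −2.21 ± 0.15 (limma adjusted p = 1.83e-08). In fetal liver it averaged −1.42 ± 0.22 in Fr.B/C and 1.24 ± 0.27 in Fr.A, a step of −2.66 ± 0.15 (adjusted p = 3.43e-09), 6.32-fold lower. This was the largest step among the members in both tissues. Within scan sessions that held both fractions, the H2-DMb1 step was −2.42, −2.16 and −1.96 in adult bone marrow and −2.97 and −2.35 in fetal liver. H2-DMa had steps of −1.79 ± 0.12 in adult bone marrow and −1.83 ± 0.12 in fetal liver (adjusted p = 2.28e-08 and 2.54e-08). In the authors' deposited table the fetal liver step of H2-DMa was −2.85. The step in adult bone marrow minus that in fetal liver was 0.03 for H2-DMa (95% interval −0.34 to 0.40), but it was 0.89 in the authors' deposited table and 1.09 with the scanner's processed signals, and did not pass in either (limma adjusted p = 0.1 and 0.0784).

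Among the chains of the A molecule, H2-Aa fell in both tissues, while H2-Ab1 passed in neither. H2-Aa averaged 2.03 ± 0.19 in bone marrow Fr.B/C and 3.60 ± 0.40 in bone marrow Fr.A (SD, n = 4 each), a step of −1.57 ± 0.17 (limma adjusted p = 2.79e-06). In fetal liver it averaged 0.49 ± 0.16 in Fr.B/C and 2.40 ± 0.19 in Fr.A, a step of −1.91 ± 0.17 (4.82e-07). The other H2-Aa probe passed as lower in both tissues with smaller steps, −0.94 ± 0.10 in adult bone marrow and −0.60 ± 0.10 in fetal liver. H2-Ab1, its partner chain, averaged 2.92 ± 0.20 in bone marrow Fr.B/C and 3.07 ± 0.33 in bone marrow Fr.A, a step of −0.16 ± 0.13 that did not pass (95% interval −0.44 to 0.12, adjusted p = 0.415). In fetal liver it averaged 2.26 ± 0.21 in Fr.B/C and 1.91 ± 0.14 in Fr.A, a step of 0.34 ± 0.13 (adjusted p = 0.0795). With the sort as a replicate block within each tissue the H2-Ab1 step in fetal liver passed as higher (adjusted p = 0.0132), and with like arrays averaged it did not (0.227). The other 3 H2-Ab1 probes gave 0.03 to 0.25 in fetal liver, and none passed.

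H2-Eb1 and Cd74 fell in both tissues. H2-Eb1 averaged −1.17 ± 0.30 in bone marrow Fr.B/C and 0.56 ± 0.34 in bone marrow Fr.A (SD, n = 4 each), a step of −1.73 ± 0.18 (limma adjusted p = 2.18e-06). In fetal liver it averaged −2.29 ± 0.14 in Fr.B/C and −1.58 ± 0.31 in Fr.A, a step of −0.72 ± 0.18 (0.00812). Cd74 averaged 1.23 ± 0.11 in bone marrow Fr.B/C and 2.96 ± 0.22 in bone marrow Fr.A, a step of −1.73 ± 0.11 (7.23e-09). In fetal liver it averaged −0.38 ± 0.18 in Fr.B/C and 0.07 ± 0.08 in Fr.A, a step of −0.45 ± 0.11 (0.00511). This step was −0.74 in the authors' deposited table and with the scanner's processed signals (0.00178 and 0.00291). With median centring in place of loess neither fetal liver step passed (adjusted p = 0.071 for H2-Eb1 and 0.0742 for Cd74), and with like arrays averaged the Cd74 step did not (0.0617).

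The H2-DO genes did not follow H2-DM. H2-Oa averaged 1.47 ± 0.08 in bone marrow Fr.B/C and 1.46 ± 0.06 in bone marrow Fr.A, a step of 0.01 ± 0.14 (95% interval −0.29 to 0.31). In fetal liver it averaged −0.26 ± 0.15 in Fr.B/C and 0.10 ± 0.39 in Fr.A, a step of −0.36 ± 0.14 (limma adjusted p = 0.079). Its fetal groups did not overlap, the other probe passed as lower (−0.45 ± 0.12, adjusted p = 0.0105), and with the sort as a replicate block the reported probe passed too (adjusted p = 0.0217), but with like arrays averaged it did not (0.153). H2-Ob had steps of 0.22 ± 0.10 in adult bone marrow and 0.15 ± 0.10 in fetal liver (adjusted p = 0.0958 and 0.328). Without array 1 of bone marrow Fr.A the H2-Ob step in adult bone marrow was 0.29 and passed (adjusted p = 0.04).

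Ciita averaged 0.03 ± 0.14 in bone marrow Fr.B/C and 0.58 ± 0.12 in bone marrow Fr.A, a step of −0.54 ± 0.08 (limma adjusted p = 0.000129). The step was −0.66, −0.60 and −0.52 within the 3 scan sessions that held both fractions, and −1.22 in the authors' deposited table. In fetal liver Ciita was at or near background in both fractions, with a step of −0.14 ± 0.08 (adjusted p = 0.278).

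**Figure D4:**
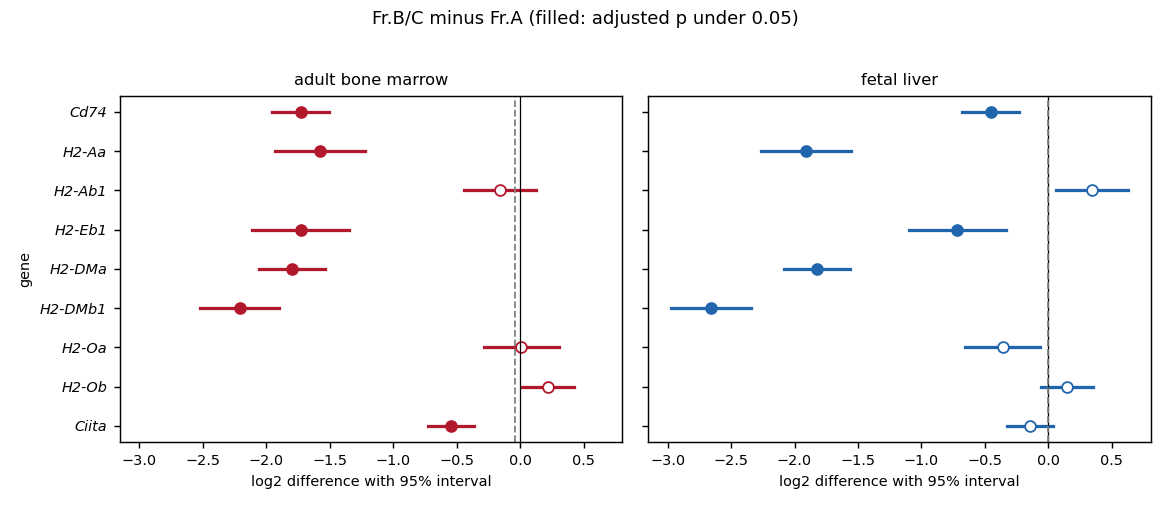
log2 difference of Fr.B/C minus Fr.A in adult bone marrow and in fetal liver, with its 95% interval; filled points passed at an adjusted p under 0.05, and the dashed line is the median of all tested genes. H2-DMb1 has the most negative step in both tissues, and H2-Ab1, H2-Oa and H2-Ob lie near 0 in adult bone marrow.

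Whether the step differed between tissues was tested as the step in adult bone marrow minus the step in fetal liver. It was more negative in adult bone marrow for 2 of 9 members, Cd74 and H2-Eb1, and for none less negative, where 4.43% of all genes passed as lower and 2.95% as higher. The difference was −1.27 ± 0.15 for Cd74 (limma adjusted p = 8.61e-05). It was −1.01 ± 0.25 for H2-Eb1 (adjusted p = 0.0245). The Cd74 call held in every alternative tried, with adjusted p-values up to 0.0279. The H2-Eb1 call was lost in the authors' deposited table (adjusted p = 0.0852), with the scanner's processed signals (0.134), with median centring (0.421), with like arrays averaged (0.1) and without any one of 5 arrays, arrays 3 and 4 of bone marrow Fr.B/C, arrays 3 and 4 of fetal liver Fr.A and array 4 of fetal liver Fr.B/C (0.0513 to 0.0545). Ciita (−0.40 ± 0.12, adjusted p = 0.0557) and H2-Ab1 (−0.50 ± 0.19, 0.132) did not pass, but both did with the sort as a replicate block (0.0328 and 0.0226), which gave 4 members with a more negative step in adult bone marrow. With like arrays averaged neither passed (0.32 for Ciita and 0.381 for H2-Ab1), and no fetal liver Fr.B/C array was well above background for Ciita. H2-Aa had a difference of 0.33 ± 0.24 that did not pass (0.471), while in the authors' deposited table it was 1.22 and passed as less negative in adult bone marrow (0.0257). The other H2-Aa probe gave a difference of −0.34 ± 0.14, which did not pass. Within scan sessions the Cd74 step was −1.71, −1.94 and −1.60 in adult bone marrow, and −0.55 and −0.35 in fetal liver. H2-Ea, the partner chain of H2-Eb1, had a difference of −0.70 ± 0.18 (adjusted p = 0.0263), but its probe was well above background on 9 of 16 arrays only.

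Other genes of the pathway were described from lists of named genes. Of 13 genes for processing and turnover, 2 passed as higher in adult bone marrow and 3 as lower in Fr.A, and 3 as higher and 3 as lower in Fr.B/C. Ctss, the protease that trims the invariant chain in antigen-presenting cells, was higher in adult bone marrow by 1.63 ± 0.16 in Fr.A cells and 1.78 ± 0.16 in Fr.B/C cells (limma adjusted p = 1.37e-06 and 5.54e-07). Ctsl, the protease known for this step in the thymic epithelium, was lower by −1.53 ± 0.15 and −2.21 ± 0.15. Marchf8, a ubiquitin ligase that takes class II molecules off the surface, was lower by −0.65 ± 0.20 and −2.06 ± 0.20. Between fractions 8 of these 13 fell and 1 rose in adult bone marrow, and 6 fell and 1 rose in fetal liver. The gene that rose in both was Ifi30, a lysosomal thiol reductase, by 2.60 ± 0.12 in adult bone marrow and 1.49 ± 0.12 in fetal liver.

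The next list held 9 measured factors that bind class II promoters or act there as coactivators. In Fr.A, 1 passed as higher in adult bone marrow and 1 as lower, and in Fr.B/C 2 as higher and none as lower. The RFX subunits in Fr.A gave 0.10 ± 0.12 for Rfx5, 0.11 ± 0.10 for Rfxank and −0.13 ± 0.13 for Rfxap, and none passed. In Fr.B/C, Rfxank (0.41 ± 0.10) and Rfx5 (0.40 ± 0.12) passed as higher in adult bone marrow and Rfxap (0.29 ± 0.13) did not. In the step to Fr.B/C, 4 of the 9 rose and 1 fell in adult bone marrow and 3 rose and 1 fell in fetal liver; Rfxank rose in both tissues, by 0.76 ± 0.10 and 0.46 ± 0.10. Over the same step in adult bone marrow Ciita and 5 of the other 8 members fell, while H2-Ab1, H2-Oa and H2-Ob did not pass. In fetal liver 5 members fell, and Ciita did not pass.

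A list of 14 measured genes known to act upstream of Ciita held activators and repressors together. Of these, 6 were higher and 2 lower in adult bone marrow in Fr.A, and 7 were higher and 2 lower in Fr.B/C. Irf1, a factor induced by interferon gamma, was higher in both fractions, by 1.20 ± 0.16 in Fr.A cells and 0.87 ± 0.16 in Fr.B/C cells. Irf8 was higher by 0.70 ± 0.08 and 1.81 ± 0.08, and Irf4 was lower by −1.22 ± 0.09 and −0.54 ± 0.09. Ebf1, a B-lineage factor, was higher by 0.56 ± 0.12 and 0.98 ± 0.12. Spi1, which encodes PU.1, was at −0.23 ± 0.09 in Fr.A (not passed) and was higher by 0.45 ± 0.09 in Fr.B/C. In the step to Fr.B/C, 3 of the 14 rose and 5 fell in adult bone marrow, and 4 rose and 5 fell in fetal liver, Irf4 by 2.30 ± 0.09 and 1.63 ± 0.09. Over that step Irf8 fell by 0.51 ± 0.08 in adult bone marrow and fell by 1.63 ± 0.08 in fetal liver.

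The tissue difference was also present in the peptide-loading genes of MHC class I. Of 9 measured, 7 were higher in adult bone marrow in Fr.A cells and 6 in Fr.B/C cells, with none lower and medians of 1.40 and 0.94. B2m, the light chain of class I, was higher by 1.88 ± 0.13 in Fr.A cells and 1.86 ± 0.13 in Fr.B/C cells. The immunoproteasome subunits Psmb9 (1.81 ± 0.14 and 1.94 ± 0.14) and Psmb8 (1.49 ± 0.08 and 1.67 ± 0.08) and the peptide transporter Tap1 (1.53 ± 0.16 and 1.94 ± 0.16) were higher too. Over the step to Fr.B/C, in which most class II members fell, 3 of these 9 fell in adult bone marrow and 1 in fetal liver. No probe was named Nlrc5, the class I transactivator. Of 4 measured costimulation genes, 2 were higher and 1 lower in adult bone marrow in Fr.A, and 2 were higher in Fr.B/C. Icosl (1.00 ± 0.12) and Cd274 (0.60 ± 0.13) were higher in Fr.A and Cd86 lower (−0.56 ± 0.11). No probe of Icosl was well above background on more than 5 of 16 arrays, and none of Cd86 on more than 11.

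Markers of other cells that can display class II, or share the Fr.A gate, moved with some of these results. Of 6 measured conventional dendritic markers, 2 were higher and 1 lower in adult bone marrow in Fr.A, and 1 was higher and 1 lower in Fr.B/C. Their mean log2 ratio per array was 0.04 to 0.19 in bone marrow Fr.B/C, 0.93 to 1.13 in bone marrow Fr.A, 0.09 to 0.21 in fetal liver Fr.B/C and 0.76 to 0.90 in fetal liver Fr.A. Itgax (CD11c) was lower in adult bone marrow by −0.90 ± 0.10 in Fr.A, while Clec10a, a lectin of dendritic cells and macrophages, was higher by 1.37 ± 0.14. Itgax was well above background on 10 of 16 arrays, Clec10a on 8 and Cd209a on none. Over the step to Fr.B/C 3 of the 6 fell in each tissue, and Itgax had steps of −2.34 ± 0.10 in adult bone marrow and −3.04 ± 0.10 in fetal liver. The part of dendritic cells in the class II differences was not tested.

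Of 8 plasmacytoid dendritic markers, 1 was higher and 4 were lower in adult bone marrow in Fr.A, and 2 were higher and 2 lower in Fr.B/C. Their mean log2 ratio per array was −0.71 to −0.49 in bone marrow Fr.B/C, −0.04 to 0.17 in bone marrow Fr.A, −0.61 to −0.22 in fetal liver Fr.B/C and 0.63 to 0.70 in fetal liver Fr.A. Ccr9 (−1.98 ± 0.14) and Siglech (−0.82 ± 0.13) were among those lower in adult bone marrow Fr.A. The part of plasmacytoid dendritic cells in the class II differences was not tested. Siglech was well above background on 8 of 16 arrays. Over the step to Fr.B/C 4 of the 8 fell and 1 rose in adult bone marrow, and 5 fell and 1 rose in fetal liver.

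Of 13 macrophage markers, 2 were higher and 5 lower in adult bone marrow in Fr.A, and 2 were higher and 4 lower in Fr.B/C, with mean log2 ratios of 0.04 to 0.33 in bone marrow Fr.B/C, 0.58 to 0.72 in bone marrow Fr.A, 0.07 to 0.29 in fetal liver Fr.B/C and 0.59 to 0.78 in fetal liver Fr.A. Cd163 (2.79 ± 0.12) and Lyz2 (2.05 ± 0.21) were higher in adult bone marrow Fr.A, and Csf1r (−1.77 ± 0.13) and Fcgr1 (−1.35 ± 0.12) were lower. Mertk was well above background on 1 array. In the step to Fr.B/C, 4 of the 13 fell in adult bone marrow and 7 in fetal liver, and none rose.

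Of 9 NK and T markers, 6 were higher in adult bone marrow in Fr.A cells and 4 in Fr.B/C cells, and none was lower, Nkg7 by 3.14 ± 0.14 and 2.65 ± 0.14. Their mean log2 ratio per array was −1.60 to −1.42 in bone marrow Fr.B/C, −0.97 to −0.77 in bone marrow Fr.A, −2.37 to −2.13 in fetal liver Fr.B/C and −1.89 to −1.63 in fetal liver Fr.A, the same order of groups as for Cd74. In the step to Fr.B/C 6 of them fell in adult bone marrow and 3 in fetal liver. Of 9 later B-cell markers, 3 were higher and 1 lower in adult bone marrow in Fr.A, and 4 were higher and 1 lower in Fr.B/C; Ms4a1 (CD20) was higher by 0.56 ± 0.10 and 0.74 ± 0.10. In the step to Fr.B/C, 5 of these 9 rose and 1 fell in adult bone marrow and 6 rose in fetal liver. All 6 erythroid markers were lower in adult bone marrow in both fractions, with medians of −2.04 in Fr.A cells and −2.14 in Fr.B/C cells, and none passed in either step between fractions. Their mean log2 ratio per array was 0.21 to 0.72 in bone marrow Fr.B/C and 0.67 to 0.86 in bone marrow Fr.A. In fetal liver it was 2.12 and 2.19 on arrays 1 and 2 and 3.50 and 3.53 on arrays 3 and 4 of Fr.B/C, and 1.94 and 1.93 on arrays 1 and 2 and 3.67 and 3.72 on arrays 3 and 4 of Fr.A. Arrays 3 and 4 of fetal liver thus stood over 1 log2 unit above arrays 1 and 2 in both fractions. Of 13 B progenitor markers, 2 were higher and 1 lower in adult bone marrow in Fr.A and 5 were higher and 1 lower in Fr.B/C, while over the step to Fr.B/C 6 rose and 2 fell in adult bone marrow and 6 rose and 4 fell in fetal liver. Both further class II genes measured, H2-Ea and H2-DMb2, were higher in adult bone marrow, in each fraction, both fell over the step in adult bone marrow, and H2-DMb2 fell in fetal liver. The part of these cell types in the class II differences was not tested.

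**Figure D5:**
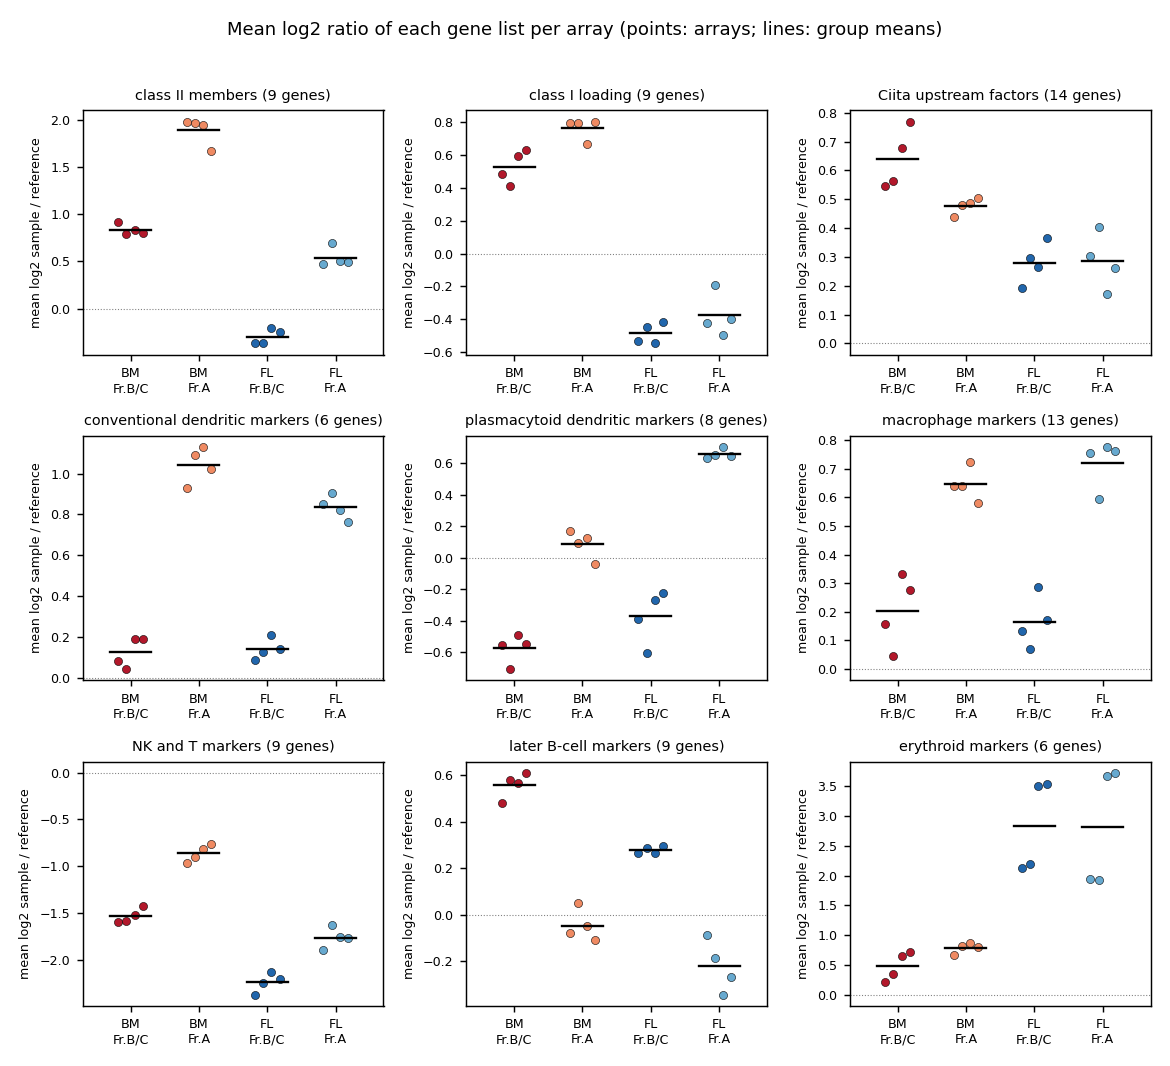
Mean log2 ratio of sample over reference of 9 gene lists on each array, by group; points are arrays and lines are group means (n = 4). Class II and class I loading genes are higher in bone marrow than in fetal liver within each fraction, while plasmacytoid dendritic markers are highest in fetal liver Fr.A.

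Genes with the pattern most like that of a member were found by Pearson's r of the log2 ratios over the 16 arrays, which share the 4 groups and the reference RNA. For Cd74 these were Myl10 (r = 0.988), Zbtb20 (0.986), Itih5 (0.986), Cpne2 (0.981) and Clec2i (0.980). For H2-Aa they were Calcrl (0.988), Islr (0.981), Dipk1b (0.980), Il6st (0.980) and Mta3 (0.977). For Ciita they were Fgl2 (0.957), Spic (0.948), Ren1 (0.943), Slc38a1 (0.939) and Kcnab1 (0.937). Within the list, Cd74 was most like H2-Eb1 (0.956) and least like H2-DMb1 (0.552), H2-Aa was most like H2-DMa (0.959) and least like H2-Ob (0.392), and Ciita was most like Cd74 (0.878) and least like H2-Ob (0.393).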

How the data were processed

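RNA of 16 samples was measured on two-colour Agilent whole mouse genome arrays. Per the file headers, the deposited scanner files (Feature Extraction 8.5.1.1) hold spot and background intensity of both dyes and processed intensity, background-subtracted, detrended and dye-normalized. The authors also deposited a table of log2 ratios, running as sample over reference (array medians −0.00726 to 0.0201, r = 0.930 to 0.951 with the ratios computed here); how it was normalized was not stated by the sources used here. Per the submitters' processing notes, limma was used.

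Signals were background-corrected (normexp, offset 50, which shrinks differences of dim probes), loess-normalized and turned to sample over reference by the labelled dyes (sample in Cy5 on arrays 1 and 3, in Cy3 on arrays 2 and 4) in limma 3.58.1 under R 4.3.3. A probe was kept if well above background in the sample channel on at least 3 arrays of any group and usable on at least 12, which left 27526 of 41174 probes. Probes were named through RefSeq accessions (22072 by their own, 19 by another listed one) or symbols (690) and synonyms (521) in the description, and 17872 stayed unnamed. A gene was represented by its brightest kept probe. Group means and a dye term were fitted over the 16 arrays with eBayes (11 residual degrees of freedom), and p-values were adjusted by Benjamini-Hochberg over 23072 genes and transcripts, 12949 with a symbol. The fit was tested on simulated arrays with independent noise. That test does not cover the likeness of arrays 1 and 2 or of arrays 3 and 4. Errors are standard errors of the fit unless marked SD. Bounds for dim probes set the bright group's mean channel signal against the dim group's higher of its own and the array's lowest detected signal, and are open to dye bias only as far as the swaps leave it. The number of arrays limits the precision.

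Within a tissue the numbers pair the fractions of a sort, as the labels state. Deviations of same-numbered samples correlated at 0.519 to 0.564 in adult bone marrow and 0.297 to 0.465 in fetal liver. Across tissues, where by the labels no sort is shared, same-numbered samples correlated at 0.367 to 0.516 in Fr.B/C and −0.153 to 0.278 in Fr.A. Same-numbered samples also share the dye orientation, so these correlations cannot tell a shared sort from a shared dye. The named genes were the 9 members, up to 4 genes per list and comparison with the smallest adjusted p, a fixed set of regulators, and the 5 genes most like Cd74, H2-Aa and Ciita; part of them are named. Members, lists and comparisons were chosen with earlier results of these data known. The sort block, the fixed session block and the separate probes were added after the data were seen. Genome-wide counts, other settings and arrays left out are in the closing section.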

Additional observations from a re-analysis of the deposited data

Results flagged for a closer look

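The step between fractions differed between tissues for 2 members, by the test of the difference itself: it was more negative in adult bone marrow by −1.27 log2 units for Cd74 and by −1.01 for H2-Eb1. In 4 of 36 groups of 4 arrays, 1 array stood apart from the other 3 by Dixon's test, which chance does in about 1 in 20 groups. Array 2 of fetal liver Fr.A was high for H2-DMb1 (1.65, next 1.16) and for H2-Oa (0.68, next −0.06). Array 3 of bone marrow Fr.B/C was high for H2-Ob (0.32, next 0.17), and array 1 of fetal liver Fr.B/C was low for H2-Ob (−0.71, next −0.49).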

How the results depend on the processing

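Over 14 other settings and 16 left-out arrays, 1261 values of members kept their direction and their side of the threshold, 24 passed that had not, 13 no longer passed and 16 changed sign; the cause was not tested unless stated. Members higher in adult bone marrow numbered 8 or 9 in Fr.A cells and 8 in Fr.B/C cells with an array left out, and none was lower. They numbered 7 in Fr.A cells and 9 in Fr.B/C cells with processed signals, and 8 and 9 in the authors' deposited table. The steps in adult bone marrow kept 6 members lower and 0 to 1 higher, those in fetal liver 5 lower and 0 higher, and the difference between steps gave 1 to 3 lower and 0 higher. With scan session as a random block 1 member was higher in the step in each tissue and 4 were lower in the difference between steps; as a fixed block 1 was higher in the fetal liver step and 4 lower in the difference. With the replicate block within each tissue 1 was higher in the fetal liver step and 4 lower in the difference. The difference between steps gave 1 lower with processed signals, median centring or averaged array sets, and 1 lower (Cd74) and 1 higher (H2-Aa, 1.22) in the authors' deposited table. Median centring left 3 members lower in the fetal liver step.

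The sign changes were all of values near 0 that did not pass. The step of H2-Oa in adult bone marrow was −0.013 in the authors' deposited table, −0.0051 with session as a random block, −0.048 as a fixed block and −0.043 to 0.074 with an array left out, and that of H2-Ab1 was 0.20 with scaling between arrays. The difference between steps was −0.024 for H2-Ob with processed signals, −0.025 for H2-DMa with median centring, −0.0032 with a fixed session block and −0.081 to 0.10 with an array left out, and −0.0023 for H2-Aa with all probes averaged.

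Of all genes, 6759 passed between tissues in Fr.A (4312 with median centring, 4119 with array sets averaged, which leaves fewer values; 5601 to 6737 with an array left out) and 6565 in Fr.B/C (3829 with array sets averaged; 5126 to 6846). In the steps 7418 passed in adult bone marrow (4358 with median centring, 4860 with sets averaged; 6413 to 7668) and 5219 in fetal liver (2791 and 2992; 4244 to 5413). In the difference between steps 1701 passed (1127 with processed signals, 450 with median centring, 964 with scaling, 2752 with a replicate block across tissues, 3763 with it within tissues, 3121 and 3445 with session as a random and a fixed block, 236 with sets averaged; 1222 to 1765 with an array left out). Median centring raised the share of higher calls to 77.6%, against 58.6%, between tissues in Fr.A and to 80.0%, against 51.5%, in Fr.B/C, and lowered it to 31.5%, against 44.1%, in the fetal liver step. Numbers shared across tissues pair no samples by the labels. Of the members, dim signal limits Ciita most, as it was well above background on 9 of 16 arrays.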
